A study of Mus musculus with 13 samples.

Results

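The Wnt ligand genes described here are Wnt2b, Wnt3, Wnt4, Wnt5a, Wnt6, Wnt7b, Wnt9b, Wnt10a, Wnt10b and Wnt11. They were chosen by symbol, and all 10 were found among the 21420 gene identifiers that both deposited count tables hold. Wnt proteins are secreted, lipid-modified signals that act on nearby cells through Frizzled receptors. In the canonical branch they stabilise beta-catenin, which keeps intestinal stem cells dividing at the base of the crypt, and in the non-canonical branch they steer cell shape and movement. In the small intestine, Paneth cells of the crypt epithelium make Wnt3, while cells of the surrounding stroma make Wnt2b and Wnt5a.

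The 13 RNA-seq libraries came from mouse small intestine. Crypts, the epithelial pockets that hold stem cells and Paneth cells, were taken at 12 weeks of age from wild-type (WT, n = 3), Eed-/- (Eed KO, n = 3) and Ezh2-/- (Ezh2 KO, n = 3) mice of C57BL/6-FVB mixed background. Organoids, cultures of crypt epithelium in Matrigel, were WT (n = 2, strain FVB) or Eed KO (n = 2, C57BL/6-FVB). Eed and Ezh2 encode subunits of Polycomb repressive complex 2, which places a repressive methyl mark on histone H3.

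All groups, WT included, had received beta-naphthoflavone, for 6 weeks from 6 weeks of age in mice and for 10 days in organoids. This compound switches on AhCre, a recombinase that deletes the floxed alleles, and per the labels the WT organoids were grown from AhCre crypts without a floxed Eed allele. AhCre acts in the epithelium and not in the stroma. Libraries are named by sequencing run and number (385_1 to 440_3). Each held 11421666 to 18300644 counts. Eed was at 15.8 to 24.6 CPM (counts scaled to library size) in Eed KO crypts and 50.01 to 60.15 in WT crypts, and at 19.2 to 30.5 against 62.3 to 73.3 in organoids. Ezh2 was at 17.9 to 21.9 CPM in Ezh2 KO crypts and 72.1 to 95.0 in WT crypts. Nothing in the labels shows that replicate libraries are from different mice or cultures. The p-values therefore cover only the library-to-library spread, and that spread may be technical.

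Some features of the libraries bear on the ligands. Summed CPM of 19 stroma, muscle and endothelium markers was 72.2, 213 and 881 in WT crypts, 176 to 361 in Eed KO crypts, 171 to 476 in Ezh2 KO crypts and 5.85 to 14.9 in organoids. Col3a1, a collagen of fibroblasts, had no count in any organoid library, whereas Col1a1 had 2 over WT and 5 over Eed KO organoids. Summed CPM of 13 immune cell markers was 63.6 to 79.6 in WT crypts, 131 to 184 in Eed KO crypts, 35.6 to 45.2 in Ezh2 KO crypts and 0.257 to 4.79 in organoids. The Eed KO crypt values lay above all others. Against WT, 3 of 12 immune markers tested were called higher (13.4% of all genes), and against Ezh2 KO 6 of 12 (12% of all genes). Their part in the crypt ligand results was not tested, and in organoids 9 to 11 of the 13 were at 0. Xist, the RNA of the inactive X chromosome, was at 2.68 and 2.74 CPM in WT crypts 385_1 and 385_2 and at 290 to 3405 in the other 7 crypt libraries. In organoids the pattern was turned round, with 1304 and 1365 CPM in WT and 0.959 and 1.45 in Eed KO. Ddx3y, a Y chromosome gene, went the other way. It was at 35.7 and 57.3 CPM in WT crypts 385_1 and 385_2, and at 0 and 0.083 in the same-numbered Eed KO crypts. In organoids it was at 0.075 and 0 CPM in WT and at 47.7 and 50.9 in Eed KO. This sex pattern cannot be told apart from genotype in organoids, nor in run 385 crypts alone. The part of sex in the results below was not tested. Run 440 holds 1 WT and 1 Eed KO crypt library that both have Xist, and their values are given separately.

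The promoters of 4 ligands are shown to set some ligands that were higher in Eed KO crypts or organoids (Wnt4, Wnt6) beside a neighbouring pair that was not called higher (Wnt3, Wnt9b). Promoters of Wnt5a, Wnt7b and Wnt10a were not analysed here. Sequences are from RefSeq, build GRCm38.p6, taken from the 250 bases upstream of each start and kept only outside the gene's own GENCODE M21 annotation. Exons of other genes were not checked. They are written 5′ to 3′ on the gene's strand, and capitals mark every CG, the dinucleotide that defines the CpG islands at which Polycomb repressive complex 2 is known to gather. Wnt4 is shown over chr4:137277385-137277488, Wnt6 over chr1:74771642-74771891, Wnt3 over chr11:103773925-103774149 (all plus strand) and Wnt9b over chr11:103749822-103750071 (minus strand).
Wnt4: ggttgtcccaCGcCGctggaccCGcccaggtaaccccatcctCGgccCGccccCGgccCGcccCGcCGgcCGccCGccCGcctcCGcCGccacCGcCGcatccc
Wnt6: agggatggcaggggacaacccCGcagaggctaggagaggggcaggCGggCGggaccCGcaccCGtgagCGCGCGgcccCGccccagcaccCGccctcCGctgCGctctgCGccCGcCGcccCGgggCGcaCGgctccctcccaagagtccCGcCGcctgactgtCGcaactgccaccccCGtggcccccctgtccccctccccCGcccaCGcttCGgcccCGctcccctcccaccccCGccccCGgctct
Wnt3: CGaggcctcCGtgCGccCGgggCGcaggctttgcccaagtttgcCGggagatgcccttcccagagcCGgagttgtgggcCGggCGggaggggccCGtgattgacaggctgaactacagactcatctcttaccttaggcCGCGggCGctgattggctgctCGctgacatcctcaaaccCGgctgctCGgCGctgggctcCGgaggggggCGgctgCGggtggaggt
Wnt9b: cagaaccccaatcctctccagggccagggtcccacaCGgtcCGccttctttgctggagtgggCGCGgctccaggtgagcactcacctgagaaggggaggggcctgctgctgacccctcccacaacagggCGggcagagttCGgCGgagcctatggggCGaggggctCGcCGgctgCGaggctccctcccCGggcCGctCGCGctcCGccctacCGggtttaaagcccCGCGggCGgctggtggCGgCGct

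Over the whole 250 bases, the motif CG, which reads the same on both strands, occurred 44 times at Wnt4, 28 times at Wnt6 and 22 times each at Wnt3 and Wnt9b. Part of that window lay inside the annotated gene at Wnt4 and Wnt3. Outside the gene there were 16 in 104 bases at Wnt4 and 20 in 225 at Wnt3, whereas the Wnt6 and Wnt9b windows lay wholly outside. All 8 promoters that the table lists for 7 of the ligands had more than the median of all promoters, which was 6 (quartiles 2 and 16). Wnt4 stood at the 99.46 percentile, Wnt6 at 92.39 and both Wnt3 and Wnt9b at 85.17. The lowest was Wnt10b with 14 and the other high values were 37 at 1 of the 2 Wnt11 promoters and 36 at Wnt2b. Only 3 of those 36 lay outside the annotated Wnt2b gene, in 38 bases. Values above the upper quartile were thus found both at ligands that were called and at ligands that were not.

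The ligand transcripts of WT crypts and organoids were mostly Wnt3, and those of Eed KO crypts and organoids were a mixture led by Wnt3 and Wnt4. Wnt4, Wnt7b and Wnt10a rose from near 0 in both. Wnt5a and Wnt6 rose in organoids. Wnt3 fell in crypts. In Ezh2 KO crypts no ligand passed the test, as against 0.0208% of all genes. Levels below are CPM on TMM-adjusted library sizes, and fold changes are log2 values from edgeR's quasi-likelihood test with their standard errors (SE). Adjusted p-values are Benjamini-Hochberg over all genes of the fit, and a gene is called where that value is under 0.05.

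**Figure D1:**
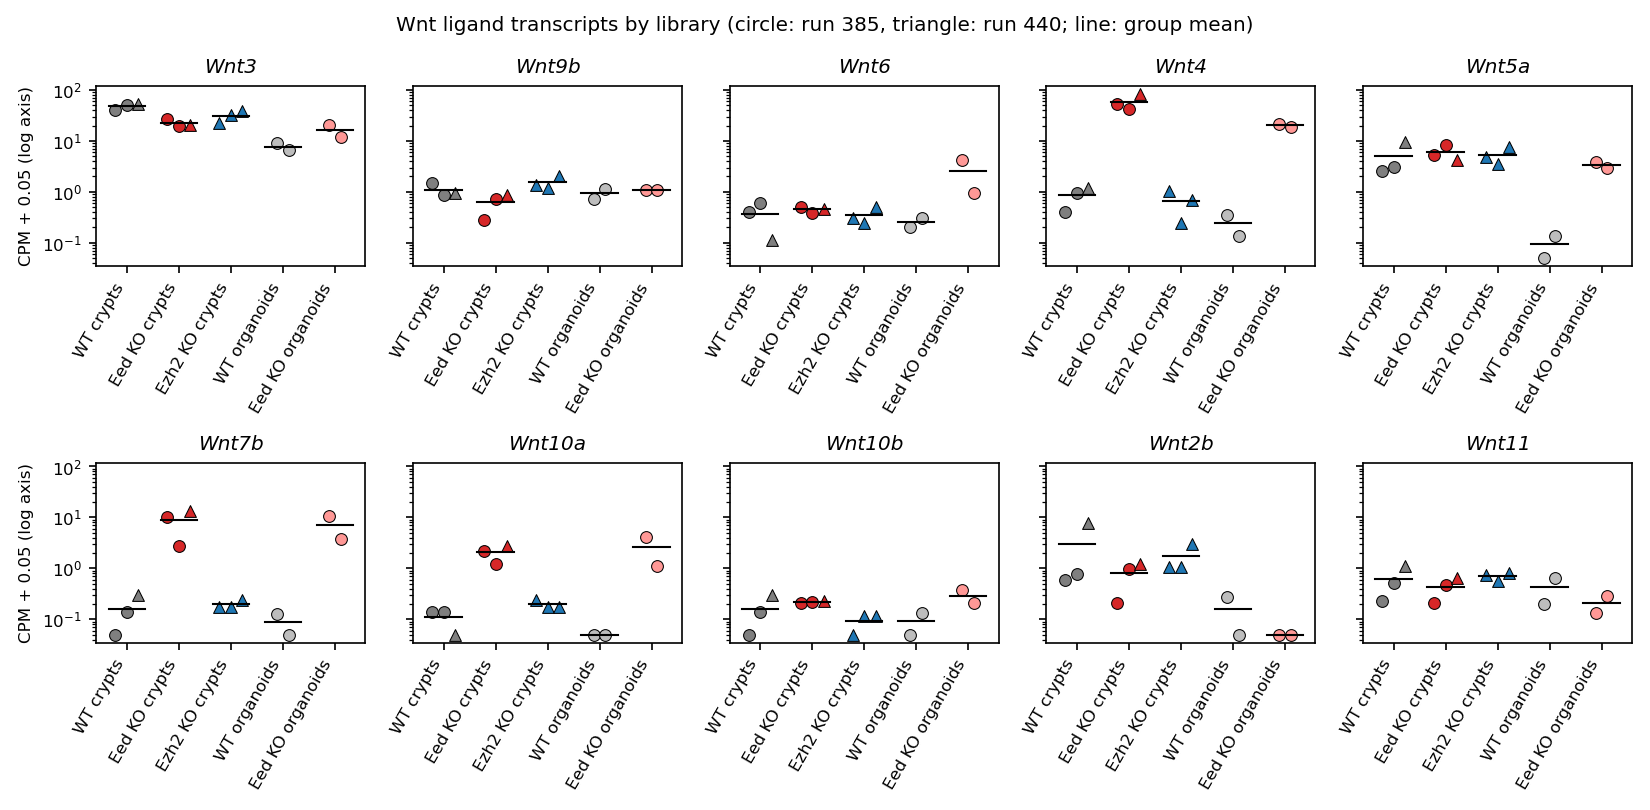
Level of each of the 10 ligand genes in each library, as CPM plus 0.05 on a log axis, with 1 panel per gene, circles for run 385, triangles for run 440 and a line at the group mean. Wnt4, Wnt7b and Wnt10a lie near the bottom in WT and Ezh2 KO libraries and well above in all Eed KO libraries. Wnt3 is high in all crypts.

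Wnt3, at chr11:103774150-103817957, was the leading ligand of WT crypts. Its level was 40.7, 50.2 and 52.6 CPM in WT crypts 385_1, 385_2 and 440_1, and 27.0, 20.0 and 20.3 in the Eed KO crypts in the same order. Every Eed KO crypt library was below every WT one. Wnt3 fell by 1.08 ± 0.23 (SE) on the log2 scale (adjusted p = 0.0107). Within run 440, where both libraries have Xist, the levels were 52.6 in WT and 20.3 in Eed KO.

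The Ezh2 KO crypts had 21.99, 32.1 and 37.8 CPM of Wnt3. These values were all under the lowest WT value and 1 lay within the Eed KO range. The fitted change was −0.65 ± 0.27 with an unadjusted p of 0.0412 and an adjusted p of 0.602, so it was not called. Between Eed KO and Ezh2 KO crypts the difference was −0.42 ± 0.29 (adjusted p = 0.337).

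In organoids the direction was the other way. The WT organoids are FVB and the Eed KO organoids C57BL/6-FVB, so strain and genotype cannot be told apart in any comparison of the 2. The same holds for the Xist and Ddx3y pattern. WT organoids had 8.85 and 6.50 CPM of Wnt3, and Eed KO organoids had 20.8 and 11.7. The groups did not overlap, but the change of 1.07 ± 0.31 missed the threshold (adjusted p = 0.0589). It was called by DESeq2 (adjusted p = 0.0317), without the low-count filter (0.0172) and without Eed KO organoid 385_2 (0.0113). With the replicate number as a block it was called too. The difference between the organoid and the crypt effect was itself tested in a fit of all 13 libraries, and it was 2.15 ± 0.43 (adjusted p = 0.0205). That call was lost without WT crypt 385_2 (adjusted p = 0.0604), WT organoid 385_1 (0.0663), WT organoid 385_2 (0.105) or Eed KO organoid 385_1 (0.0868).

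In order, Wnt3 was highest in WT crypts (47.8 ± 6.31 CPM, SD, n = 3), then Ezh2 KO crypts (30.7 ± 8.03, n = 3), Eed KO crypts (22.4 ± 3.98, n = 3), Eed KO organoids (16.2 ± 6.42, n = 2) and WT organoids (7.67 ± 1.66, n = 2). No neighbouring pair in that order passed its test. From WT crypts to WT organoids the log2 change was −2.64 ± 0.34 (adjusted p = 0.000244).

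Paneth cell markers are given beside Wnt3. Summed CPM of the 10 markers, which include lysozyme (Lyz1) and alpha-defensins, was 84970 to 123500 in WT crypts, 41090 to 80220 in Ezh2 KO crypts and 21200 to 29560 in Eed KO crypts. In organoids it was 4712 and 5588 in WT and 9861 and 6690 in Eed KO. Of the 9 markers tested, 5 fell in Eed KO crypts, where 10.6% of all genes fell. In organoids 4 rose and 2 fell, where 13.5% and 4.63% of all genes did. At most 1 of the 10 was at 0 in any library. The markers did not all move alike. Mean Mmp7 was 1464 CPM in WT and 1174 in Eed KO crypts, and 95.6 and 206 in organoids. In organoids mean Mptx2 was 174 CPM in WT and 51.0 in Eed KO, and mean Pla2g2a 674 and 12.7. Pla2g2a varied widely among WT crypts (4905 ± 8100 CPM, SD, n = 3). The part of Paneth cell number in the Wnt3 values was not tested, and in bulk RNA fewer cells of a type and less RNA per cell cannot be told apart.

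Wnt9b lies next to Wnt3 on chromosome 11 in the opposite orientation, with 24328 bases between the genes. It is a canonical ligand known for its role in kidney development. It was read at 16, 9 and 15 counts in WT crypts, 3, 8 and 14 in Eed KO crypts and 21, 18 and 31 in Ezh2 KO crypts, and at 9 to 13 counts in all organoid libraries. In CPM, WT crypts were at 0.823 to 1.43, Eed KO crypts at 0.232 to 0.824 and Ezh2 KO crypts at 1.15 to 1.98. On that scale the WT range overlapped each knockout range, and no contrast was called. The fitted change in Eed KO crypts was −0.86 ± 0.52 (adjusted p = 0.280) and in organoids 0.23 ± 0.48 (adjusted p = 0.802).

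Wnt4, at chr4:137277489-137299726, a ligand known for kidney tubule and female reproductive tract formation, became the most abundant ligand of Eed KO crypts. Its level was 0.357, 0.914 and 1.16 CPM in WT crypts and 53.0, 41.6 and 82.6 in Eed KO crypts. The lowest Eed KO library was far above the highest WT one, and run 440 alone gave 1.16 against 82.6. The change was 6.19 ± 0.44 (adjusted p = 0.000114). Over summed counts, 2590 against 33, the ratio was 71.9-fold with a 95% counting interval of 51.1 to 104.8.

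The same ligand was at 0.300 and 0.0856 CPM in WT organoids, from 4 and 1 counts, and at 21.5 and 18.6 CPM in Eed KO organoids. The groups did not overlap and the change was 6.58 ± 0.39 (adjusted p = 0.000127). Between organoids and crypts the Eed effect differed by 0.40 ± 0.78 (adjusted p = 0.883), an estimate too wide to show that the effects were alike. From Eed KO crypts to Eed KO organoids Wnt4 changed by −1.25 ± 0.37 (adjusted p = 0.0267), a call lost without Eed KO crypt 385_1 (adjusted p = 0.13), Eed KO organoid 385_1 (0.11) or Eed KO organoid 385_2 (0.145).

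Wnt7b, at chr15:85535439-85581821, is made by lung and kidney epithelium during development. It had 0, 1 and 4 counts in WT crypts and 131, 33 and 228 in Eed KO crypts. In organoids it had 1 and 0 counts in WT and 130 and 46 in Eed KO. All Eed KO libraries stood above all WT libraries. The change was 6.20 ± 0.73 in crypts (adjusted p = 0.000631) and 7.13 ± 0.96 in organoids (adjusted p = 0.00359). Against the single WT organoid count, the ratio of summed counts was 177 with an interval of 31.3 to 7018. Its exons overlap those of AU022754 on the opposite strand in part. The strand setting of counting was not given, so reads of the 2 genes cannot be told apart.

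Wnt10a and Wnt6 lie next to each other on chromosome 1, in the same orientation and 6196 bases apart. Wnt10a, at chr1:74791516-74804179, is known for tooth and hair formation. It had 1, 1 and 0 counts in WT crypts and 28, 14 and 46 in Eed KO crypts, a ratio of 40.3 with an interval of 10.8 to 338 (log2 fold change 5.05 ± 0.72, adjusted p = 0.00158). No count was seen in either WT organoid library, and there were 52 and 13 in Eed KO organoids. Taking 3 counts over the WT group as the floor, Wnt10a was at least 21.7-fold higher in Eed KO organoids. It passed the test there (adjusted p = 0.0296), but not without WT organoid 385_1 (adjusted p = 0.0683), and without Eed KO organoid 385_1 it was too sparse to be tested.

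Wnt6, at chr1:74771892-74785319, is a ligand of epithelia. It was too low to be tested in crypts, with 4, 6 and 1 counts in WT, 6, 4 and 7 in Eed KO and 4, 3 and 7 in Ezh2 KO. In organoids it had 2 and 3 counts in WT and 51 and 11 in Eed KO. The organoid groups did not overlap, and the change was 3.55 ± 0.92 (adjusted p = 0.0409). Most of the Eed KO counts came from library 385_1, and the call was lost without it (adjusted p = 0.204) and without either WT library (0.219 and 0.117). Both neighbours were thus higher in Eed KO organoids, and in crypts Wnt10a was higher while the crypt counts of Wnt6 overlapped between groups. The difference between the organoid and crypt effect for Wnt6 was 3.03 ± 1.22 (adjusted p = 0.221), which was not called.

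**Figure D2:**
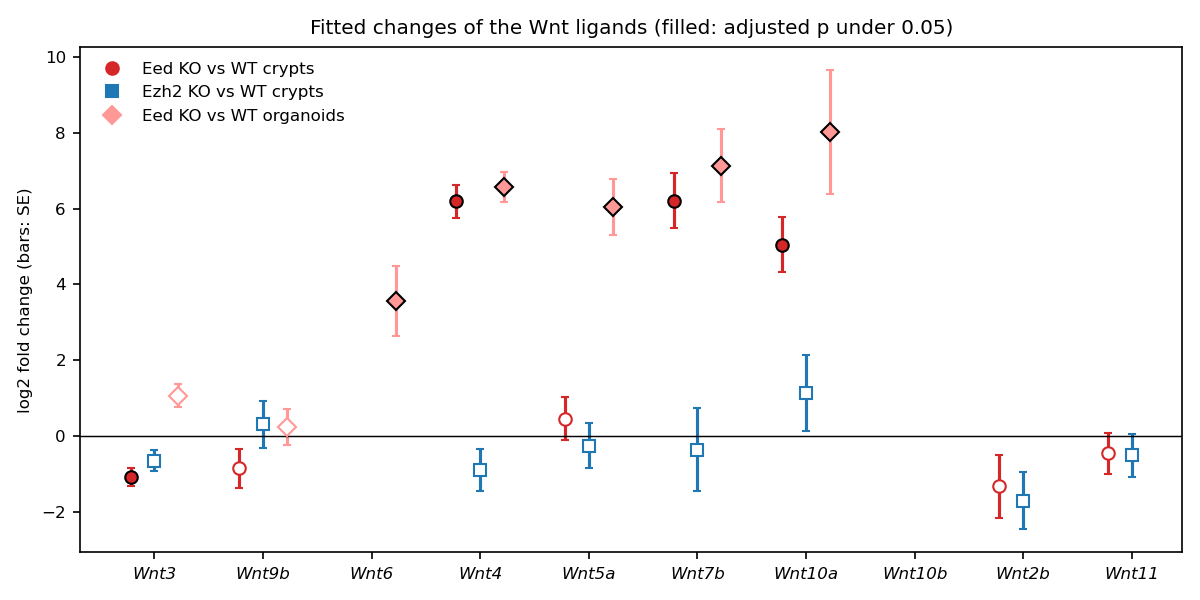
Fitted log2 fold changes with SE bars for each ligand in Eed KO against WT crypts (circles), Ezh2 KO against WT crypts (squares) and Eed KO against WT organoids (diamonds), with filled symbols where the adjusted p was under 0.05 and no symbol where a gene was too sparse to test. In crypts Wnt4, Wnt7b and Wnt10a are filled above 0 and Wnt3 is filled below 0. All Ezh2 KO symbols are open, and the Wnt10a value in organoids rests on a WT group without counts.

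Wnt5a, at chr14:28504750-28527447, the main non-canonical ligand of gut mesenchyme, acts through the Ror2 receptor. Its exons overlap those of Gm2670 on the opposite strand over 358 of 7823 bases, so the same limit holds for that stretch. Its level was 2.50, 3.02 and 9.67 CPM in WT crypts, 5.17, 8.30 and 4.18 in Eed KO crypts and 4.70, 3.52 and 7.71 in Ezh2 KO crypts. The 3 groups overlapped, and WT crypt 440_1 was the highest of all. No crypt contrast was called (Eed KO against WT 0.46 ± 0.56, adjusted p = 0.605). Within run 385 alone Wnt5a was higher in Eed KO (1.27, adjusted p = 0.0356), whereas in run 440 it was 9.67 in WT and 4.18 in Eed KO. In the run 385 crypts the Xist and Ddx3y pattern cannot be told apart from genotype.

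Wnt5a had 0 and 1 counts in WT organoids and 47 and 36 in Eed KO organoids. The ratio was 83.3 with an interval of 14.6 to 3330, and the change was 6.05 ± 0.74 (adjusted p = 0.0021). The Eed KO organoid levels of 3.75 and 2.90 CPM lay under all Eed KO crypt values but within the range of the WT crypts. WT organoids were lower than WT crypts (1 count against 219, −6.31 ± 1.11, adjusted p = 0.00175). The Eed effect differed between organoids and crypts by 5.63 ± 1.30 (adjusted p = 0.0362). That call was lost without any 1 of 7 libraries, with adjusted p-values of 0.0562 to 0.194 and differences of 4.69 to 8.08. These were WT crypt 385_2, Eed KO crypt 385_1, Ezh2 KO crypt 440_1 and each of the 4 organoid libraries.

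Stroma markers are given beside Wnt5a. WT crypt 440_1 had both the highest summed stroma markers (881 CPM) and the highest Wnt5a, and WT crypt 385_1 had the lowest of both among crypts. The part of stroma in the crypt values was not tested. In organoids the summed markers were 5.85 and 11.5 CPM in WT and 14.9 and 11.4 in Eed KO, with 13, 11, 9 and 8 of the 19 at 0. Col3a1, Lum, Grem1, Cdh5 and Kdr were at 0 in all 4, and Vim gave most of the sum. Col1a1 had 2 counts over WT and 5 over Eed KO organoids, Acta2 2 and 6, and Des 0 and 9. Grem1 was sparse in crypts too, with 25 counts over WT, 23 over Eed KO and 10 over Ezh2 KO. Pdgfra, the only stroma marker called of 3 tested, had 1 and 5 counts in WT and 20 and 26 in Eed KO organoids (2.88 ± 0.67, adjusted p = 0.025). Of all genes 13.5% were called higher in that comparison. Summed enteric neuron and glia markers were 5.85 and 6.33 CPM in WT organoids and 17.4 and 16.1 in Eed KO organoids. Their part in the Wnt5a result was not tested.

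Wnt11, another non-canonical ligand, known for cell movements in early development, had 2, 5 and 17 counts in WT crypts, 2, 5 and 10 in Eed KO crypts and 11, 8 and 12 in Ezh2 KO crypts. Its exons overlap those of Gm8398 on the opposite strand in part, with the same limit. The groups overlapped in every pairing, and no crypt contrast was called (adjusted p between 0.592 and 0.998). It was too sparse to test in organoids, at 2 and 7 counts in WT and 1 and 3 in Eed KO.

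Wnt2b, a canonical ligand of intestinal stroma, had 6, 8 and 125 counts in WT crypts, 2, 11 and 20 in Eed KO crypts and 16, 16 and 47 in Ezh2 KO crypts. WT crypt 440_1, the library with the most stroma markers, held 125 of the 139 WT counts, and the groups overlapped. Neither knockout was called (Eed KO −1.33 ± 0.82, adjusted p = 0.285, and Ezh2 KO −1.71 ± 0.76, adjusted p = 0.602). Without Eed KO crypt 385_2 the Eed KO change was −2.47 and was called (adjusted p = 0.0487). In organoids Wnt2b had 3 and 0 counts in WT and none in Eed KO, and it was too sparse to test.

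Wnt10b, a canonical ligand known for bone formation and for holding back fat cell formation, was the sparsest. It had at most 4 counts in any library, with 5 in all over WT crypts, 7 over Eed KO crypts, 2 over Ezh2 KO crypts, 1 over WT organoids and 6 over Eed KO organoids. It was under the low-count filter in every contrast, and it was not called where DESeq2 or the unfiltered fit took it in. At this depth no difference was detectable.

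Counted over the group, Eed KO crypts had 3 ligands called higher and 1 lower against WT, among 8 tested. Of all 14406 genes in that fit, 24% were called, 13.4% higher and 10.6% lower. The 9-library fit called 3463 genes in all, a fit of the WT and Eed KO crypts alone 2464, and that smaller fit with the replicate number as a block 1589. The same 4 ligands were called in each. The median log2 change was −0.002 for the tested ligands and −0.038 for all genes. Eed KO organoids had 5 called higher and 0 lower among 7 tested, where 18.2% of 12958 genes were called, 13.5% higher and 4.63% lower. The median there was 6.05 for the tested ligands and −0.005 for all genes. A ligand near 0 in WT could enter these tests only through its Eed KO libraries, so the counts and medians describe the genes that passed the filter and not all 10.

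Ezh2 KO crypts had 0 of 8 tested ligands called against WT by edgeR and 0 by DESeq2. Only 0.0208% of all genes were called in that comparison, and 1179 genes had an unadjusted p under 0.05, Wnt3 being the only tested ligand among them. Wnt4 was at 1.00, 0.192 and 0.637 CPM in the Ezh2 KO crypts, Wnt7b at 2, 2 and 3 counts and Wnt10a at 3, 2 and 2 counts. Wnt4 and Wnt7b overlapped WT. Wnt10a was above every WT library in CPM but was not called (1.13 ± 0.99, adjusted p = 0.758). All 3 were below every Eed KO crypt value. Wnt7b and Wnt10a passed the low-count filter of the joint crypt fit only through the Eed KO libraries. At so few counts in both groups, the test against WT could show little for them. All Ezh2 KO libraries were in run 440, with 1 WT library beside them.

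Set directly against Ezh2 KO crypts, Eed KO crypts had 3 ligands called higher and 0 lower of 8, where 20% of all genes were called, 12% higher and 8.05% lower. These were Wnt4 (7.09 ± 0.48, adjusted p = 0.000124), Wnt7b (6.56 ± 0.75, adjusted p = 0.000935) and Wnt10a (3.92 ± 0.67, adjusted p = 0.00518). Wnt10a was not called without Eed KO crypt 440_1, where the run term rests on WT libraries of 1, 1 and 0 counts (−0.07, adjusted p = 0.768). Wnt5a was called higher there instead (2.07, adjusted p = 0.0495).

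Organoids and crypts of the same genotype were compared to see which ligands are read in epithelium without stroma. Culture differed too, as did strain for WT. Eed KO organoids and Eed KO crypts also had opposite Xist patterns. WT organoids had 2 of 8 ligands called lower than WT crypts, Wnt3 and Wnt5a, and 0 higher. Of all genes 28.1% were called, 18.9% lower and 9.17% higher. Eed KO organoids had 1 of 8 called lower than Eed KO crypts, Wnt4, and 0 higher. Of all genes 27.9% were called, 15.6% lower and 12.3% higher. Wnt6 was higher in Eed KO organoids without reaching the threshold (2.25 ± 0.77, adjusted p = 0.0503). Wnt7b (0.17 ± 0.59, adjusted p = 0.867) and Wnt10a (0.49 ± 0.68, adjusted p = 0.63) were not called between them. For the difference of the Eed effect between organoids and crypts, 2 of 8 ligands were called, both higher in organoids, with 4.12% of all genes called, 2.99% higher and 1.13% lower.

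Levels can be compared between ligands only per length, as CPM per kilobase of exon. On that scale the 10 ligands held 88.4% to 96.9% of the signal of 18 Wnt ligand genes in every library. Wnt3 took 78.1% to 89.5% of it in WT crypts, 73.6% to 85.4% in Ezh2 KO crypts and 72.0% to 77.7% in WT organoids. In Eed KO crypts Wnt4 took 47.6% to 60.4% and Wnt3 20.2% to 33.0%, so the first place had passed from Wnt3 to Wnt4 in each of the 3 libraries. Wnt7b took 2.79% to 8.41%, Wnt5a 1.64% to 5.29% and Wnt10a 2.35% to 3.37%, and in Eed KO crypt 385_2 Wnt5a was the highest of these 3.

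Eed KO organoids had the most even mixture. Wnt3 took 33.2% and 34.3% there, Wnt4 26.0% and 38.8%, Wnt7b 6.62% and 10.8%, Wnt6 3.54% and 9.43%, and Wnt10a 3.71% and 8.54%. The ligand total was 19.7 and 11.4 CPM per kilobase in Eed KO organoids against 3.70 and 2.94 in WT organoids, with no overlap. In crypts the total was 14.8, 18.3 and 21.9 in WT, 26.6, 20.1 and 32.6 in Eed KO and 9.71, 12.2 and 15.9 in Ezh2 KO. The WT and Eed KO crypt totals overlapped.

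**Figure D3:**
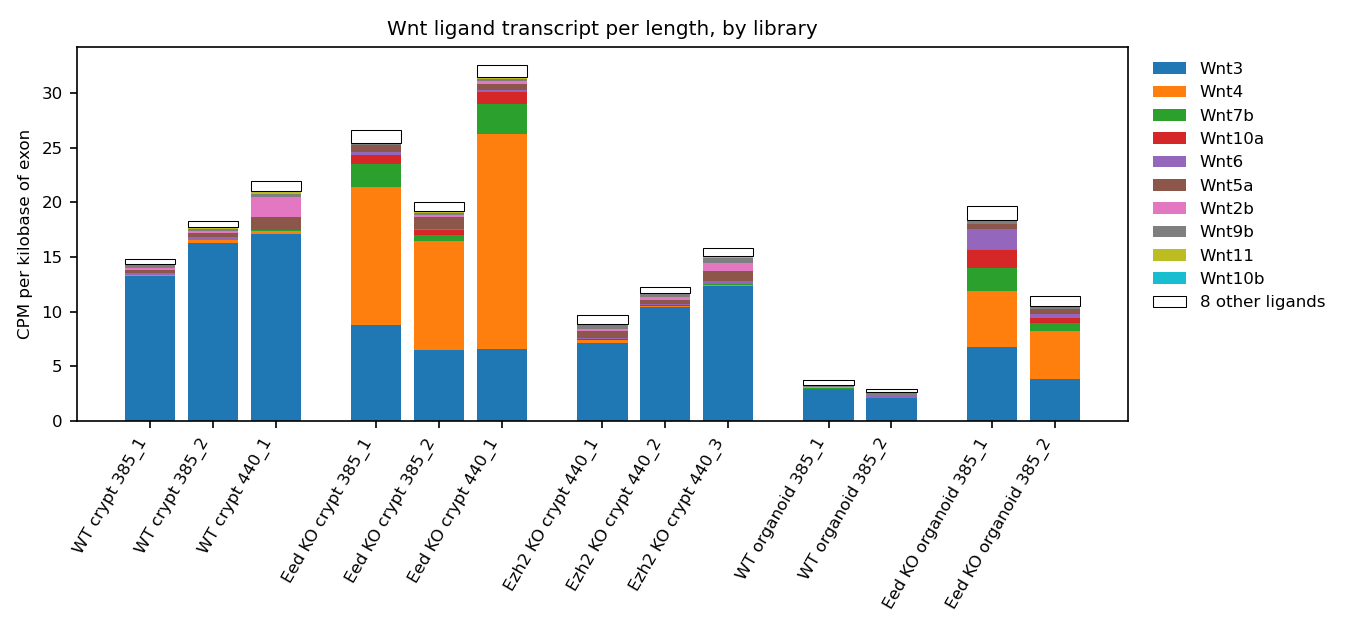
CPM per kilobase of exon of the 10 ligands (colours) and 8 other Wnt ligands (white), stacked for each of the 13 libraries. Wnt3 fills most of each WT and Ezh2 KO bar, whereas Wnt4 is the largest part of each Eed KO crypt bar. Both Eed KO organoid bars, at 19.7 and 11.4, stand above the WT organoid bars at 3.70 and 2.94.

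**Figure D4:**
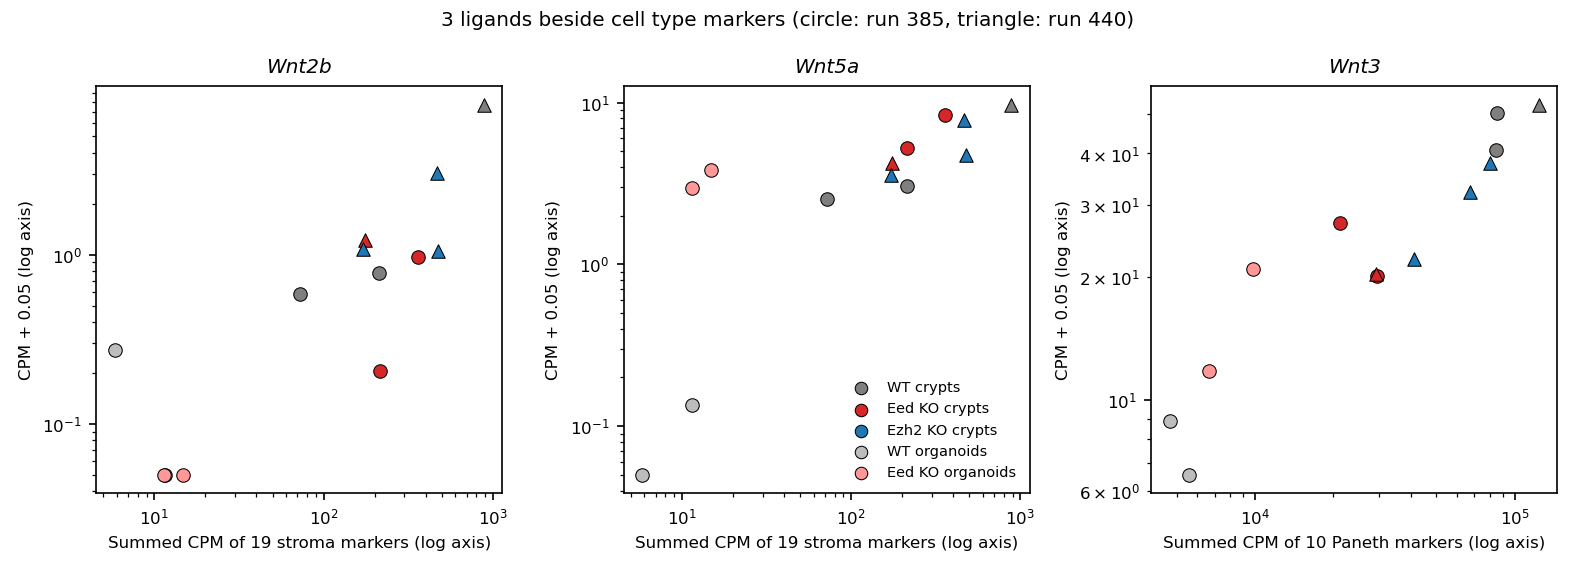
Wnt2b and Wnt5a against the summed CPM of 19 stroma markers, and Wnt3 against the summed CPM of 10 Paneth cell markers, with 1 point per library and log axes. The 4 organoid libraries have stroma sums of 5.85 to 14.9, and the 2 Eed KO organoids still have Wnt5a at 3.75 and 2.90 CPM. WT crypt 440_1 is at the upper right in all 3 panels.

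Of 8 other Wnt ligands that both tables hold, only Wnt9a and Wnt5b were abundant enough to test. In Eed KO crypts neither was called against WT, where 24% of all genes were, and neither was called in Ezh2 KO crypts. Wnt9a had 3 and 1 counts in WT organoids and 20 and 20 in Eed KO organoids. It rose (3.25 ± 0.60, adjusted p = 0.00984), as did 13.5% of all genes.

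Of 9 genes for Wnt loading, release and inactivation tested in Eed KO crypts, 2 rose and 0 fell, a share near that of all genes (13.4% higher). They were Porcn, the acyltransferase that lipid-modifies Wnt proteins (1.23 ± 0.28, adjusted p = 0.0137), and Notum, the secreted enzyme that removes the lipid (3.79 ± 0.62, adjusted p = 0.00292). Porcn went from 4.66 ± 1.43 CPM in WT crypts to 10.6 ± 1.46 in Eed KO crypts (SD, n = 3). In organoids 1 of 10 rose (13.5% of all genes did), Wls, the carrier that takes Wnt proteins to the cell surface (1.15 ± 0.24, adjusted p = 0.0219).

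Among 15 tested receptors and coreceptors in Eed KO crypts, 6 rose and 2 fell, where 13.4% and 10.6% of all genes did. Fzd3 rose most (4.80 ± 0.66, adjusted p = 0.00135), followed by Fzd10 (3.79 ± 0.42, adjusted p = 0.000523) and Fzd8 (1.59 ± 0.29, adjusted p = 0.00507). Fzd5, a main Frizzled receptor of the intestinal epithelium, fell from 274 ± 14.6 to 81.3 ± 62.0 CPM (SD, n = 3; log2 −1.996 ± 0.36, adjusted p = 0.00461), and Fzd2 fell by 1.25 ± 0.34 (adjusted p = 0.0282). In organoids, where 13.5% of all genes rose and 4.63% fell, 3 of 14 rose, Fzd3 (3.62 ± 0.36, adjusted p = 0.000936), Fzd1 (3.20 ± 0.39, adjusted p = 0.00218) and Ptk7 (0.93 ± 0.23, adjusted p = 0.0342), and Fzd5 fell (−1.02 ± 0.15, adjusted p = 0.00447).

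Secreted antagonists were mostly too low to test. In Eed KO crypts 1 of 5 rose, Wif1, which binds Wnt proteins directly (2.35 ± 0.63, adjusted p = 0.026), and 1 fell, Sfrp5 (−2.22 ± 0.29, adjusted p = 0.000978). Of all genes 13.4% rose and 10.6% fell there. Sfrp1, a decoy that holds Wnt proteins away from Frizzled, was the only one tested in organoids, where WT had no count and Eed KO had 32 in all. It was called higher (adjusted p = 0.0078), as were 13.5% of all genes.

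Of 5 R-spondin pathway genes tested in Eed KO crypts, where 13.4% of all genes rose and 10.6% fell, none rose and 3 fell. These were the R-spondin receptors Lgr5 (−1.24 ± 0.17, adjusted p = 0.00146) and Lgr4 (−1.18 ± 0.17, adjusted p = 0.00162) and the Frizzled-removing ligase Znrf3 (−0.61 ± 0.18, adjusted p = 0.0379). In organoids Rspo4 rose (2.95 ± 0.53, adjusted p = 0.00895) and none of the 5 fell, where 13.5% of all genes rose and 4.63% fell. The Lgr4 effect differed between organoids and crypts (1.38 ± 0.24, adjusted p = 0.0105). In Ezh2 KO crypts no gene of any of these lists was called, as against 0.0208% of all genes. With so few calls, a gene that was not called is not shown to be unchanged. Mean Fzd3 was 0.284 ± 0.178 CPM in WT, 2.90 ± 1.28 in Ezh2 KO and 9.60 ± 4.96 in Eed KO crypts (SD, n = 3). Other genes had a lower mean in Ezh2 KO than in WT crypts, such as Lgr4 (220 ± 18.1 against 334 ± 84.8 CPM).

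**Figure D5:**
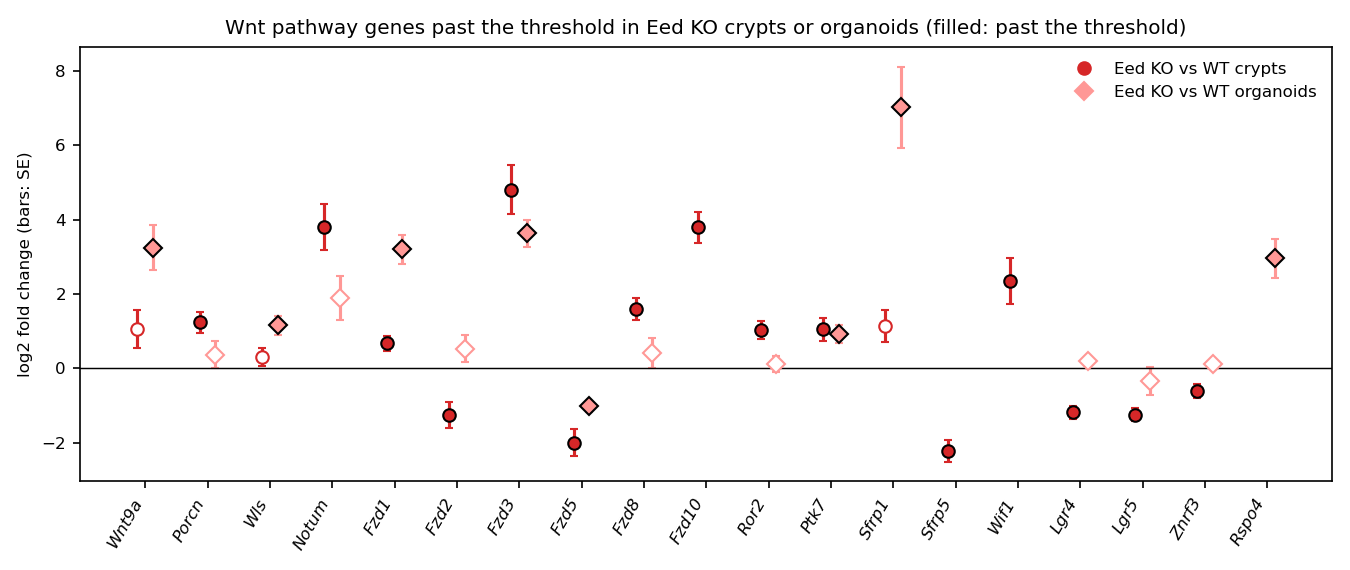
Log2 fold changes with SE bars of the 19 Wnt pathway genes, other than the 10 ligands, that passed the threshold in Eed KO crypts (circles) or Eed KO organoids (diamonds), with filled symbols past the threshold. Fzd3 is filled above 0 and Fzd5 filled below 0 in both, whereas Lgr4, Lgr5 and Znrf3 are filled below 0 in crypts. Among these 3 the difference between organoids and crypts was called for Lgr4. The Sfrp1 diamond rests on a WT group without counts.

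For each ligand in the 13-library fit, the genes with the most similar profile are given by Pearson's r of log2 CPM over the 13 libraries, as a description. Wnt4 was most like Alpl (0.983) and Cmtm8 (0.980), Wnt7b like Palm3 and Stra6 (0.982 each) and Wnt10a like Tspan9 (0.973). Wnt3 was closest to Fam46c (0.973), Wnt5a to Kirrel (0.966), Wnt2b to Tmem208 (0.958), Wnt9b to Fev (0.883) and Wnt6 to Pcdh19 (0.870). The libraries share groups and runs, so high values are common among genes that separate the same groups.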

How the data were processed

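The values the authors deposited are unnormalized counts of reads for each gene, in a separate table per sequencing run. Build GRCm38, TopHat2 2.0.12, Bowtie 0.12.9, HTSeq and DESeq2 are named, without their order, in the submitters' processing notes. TRIzol extraction and a stranded mRNA kit are given per the labels. The strand setting of counting was not given in the sources used here.

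The 2 tables were joined on Ensembl identifiers. CPM and CPM per kilobase of GENCODE M21 exon were computed from the deposited counts with TMM library sizes. No run correction was applied to levels, only to fits. Genes were tested with edgeR 4.0.16 in R 4.3.3 (quasi-likelihood F test, robust, TMM, low-count filter with minimum count 10 and minimum total 15, Benjamini-Hochberg, threshold 0.05). The 9 crypt libraries were fitted with group and run (14406 genes, 5 residual degrees of freedom), those of organoids by group alone (4 libraries, 12958 genes, 2 residual degrees of freedom), and all 13 by group and run (14761 genes, 7 residual degrees of freedom) for contrasts between organoids and crypts. The method was tested on simulated data. Ratios of summed counts carry exact 95% intervals, and a group at 0 has a floor of 3 counts summed over its libraries. Both cover counting error only.

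The ligands, pathway lists and marker lists were chosen with earlier results of these data known. From each pathway list at most 3 genes per direction and comparison are named, those past the threshold with the largest change. Alternatives were DESeq2 1.42.0, RLE size factors, no filter, no run term, single runs, a replicate block and leaving out each library. Same-numbered WT and Eed KO crypts deviated together (r = 0.176, 0.374 and 0.341, with run 440 holding 1 pair), which met the criterion of r over 0.1 for treating the numbers as pairs. The labels do not state a pairing, and Eed KO 385_1 was more like WT 385_2 (r = 0.371) than WT 385_1. Same-numbered organoids had r = 0.242 and differently numbered ones −0.242, a mirrored value that 2 libraries a group always give.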

Additional observations from a re-analysis of the deposited data

Results flagged for a closer look

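The Wnt3 change from WT to Eed KO was called different between organoids and crypts, a call kept in 13 of 17 alternatives. That change was 2.15 ± 0.43 (SE) higher in organoids on the log2 scale by the interaction term of edgeR's quasi-likelihood test over 13 libraries (adjusted p = 0.0205). Wnt3 was lower in 3 of 3 Eed KO crypts than in any WT crypt and higher in 2 of 2 Eed KO organoids than in either WT organoid. How many of all genes separate in this way was not counted.

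For Wnt5a the same term was 5.63 ± 1.30 (adjusted p = 0.0362), a call kept in 10 of 17 alternatives. Its Eed KO and WT crypts overlapped, and both Eed KO organoids, at 47 and 36 counts, were above the WT organoids, at 0 and 1. Xist, stroma and Paneth cell markers also differed between these groups, and their part was not tested. WT and Eed KO organoids differ in strain as well. Neither strain nor the Xist pattern can be told apart from genotype there.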

How the results depend on the processing

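In Eed KO against WT crypts the calls of Wnt3, Wnt4, Wnt7b and Wnt10a were kept in all 16 alternatives, and 4 to 5 ligands were called. The replicate block, fitted on the WT and Eed KO crypts only, kept all 4 (4 called, 1589 genes in all, against 2464 in those libraries without the block and 3463 with all 9 crypts). Ezh2 KO crypts had 0 called throughout, and Eed KO against Ezh2 KO crypts 3. In Eed KO organoids leaving out single libraries gave 3 to 6, and the block of 2 same-numbered pairs gave 6, adding Wnt3 (1.05). The labels give these pairs only a shared number, and their deviations had r = 0.242. For the difference between organoids and crypts leaving out single libraries gave 0 to 2. For Eed KO organoids against Eed KO crypts it gave 0 to 3, and DESeq2 and run 385 alone gave 2 each.

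Of 783 alternative values of single ligands, 729 kept direction and call, 18 lost the call, 13 gained one and 23 changed sign. Of the sign changes, 1 was of a called value, Wnt10a in Eed KO against Ezh2 KO crypts (−0.07 without Eed KO crypt 440_1). In Ezh2 KO crypts, no run term gave Wnt5a 0.04, Wnt7b 0.22 and Wnt11 0.16. Leaving out single libraries put the other sign changes in these ranges: in Ezh2 KO against WT crypts Wnt2b −2.41 to 0.25, Wnt5a −0.83 to 1.64, Wnt7b −0.71 to 0.49, Wnt9b −0.48 to 0.71 and Wnt10a −0.03 to 4.1, with each sign change coming without WT crypt 440_1. In Eed KO against Ezh2 KO crypts they were Wnt2b −0.49 to 1.85, Wnt5a −0.33 to 2.07, Wnt10a −0.07 to 4.17 and Wnt11 −0.18 to 0.41. Wnt9b in Eed KO organoids was −0.11 to 0.62. The organoid minus crypt difference was −3.58 to 1.35 for Wnt2b and −0.17 to 1.54 for Wnt4. In WT organoids against crypts Wnt9b was −0.54 to 0.41. In Eed KO organoids against crypts Wnt7b was −0.75 to 1.36 and Wnt10a −0.81 to 1.17. The cause was not tested. With 2 organoid libraries a group and counts near 0, depth limits Wnt6, Wnt10b, Wnt11 and Wnt2b there.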
